A study of Homo sapiens with 12 samples.

Results

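The 7 genes described here are ETV1, ETV4, ETV5, PHLDA1, MYEOV, HMGA2 and HMGA1, of the 26485 genes counted in every library. ETV1, ETV4 and ETV5 form the PEA3 group of ETS transcription factors, and the other 4 are genes linked to growth or invasion. They were chosen by symbol, with their counts over the 4 treatments already known. Their values are therefore given as a description with errors and without p-values. Counts of them that pass a threshold stand beside the share of all genes that does, from which nothing is read about them. The lists of other genes below were also chosen with earlier results of these data known. Adjusted p-values printed for other genes named below carry this selection and are no independent support. The cells were OVCAR8, an established human ovarian cancer line, grown in RPMI medium with serum and treated for 7 h with EC359 at 150 nM, trametinib at 100 nM, both agents together at these doses (combination) or vehicle alone (control), with 3 libraries per condition and 12 in all. EC359 is described by the study as an inhibitor of LIFR, the receptor for leukemia inhibitory factor, and trametinib inhibits MEK, the kinase that activates ERK. All groups were the same line, so the results describe a single cell model. The labels do not say whether the 3 libraries of a condition came from separate cultures, so the errors measure the spread between these libraries, which may be technical.

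PEA3 factors bind DNA through an ETS domain and are known as nuclear targets of the RAS, MEK and ERK cascade, in which active ERK both phosphorylates them and relieves the repression of their genes. The repressor CIC (Capicua) holds the PEA3 genes down when ERK is inactive, and ubiquitin ligases built around COP1 degrade the PEA3 proteins. In carcinoma cells PEA3 factors are best known for driving invasion genes such as matrix proteases. HMGA1 and HMGA2 are small architectural chromatin proteins that bend AT-rich DNA and are abundant in embryos and tumors, PHLDA1 is a pleckstrin-homology-like protein that is induced by growth factors and limits receptor signaling, and MYEOV is a gene first described in myeloma, close to CCND1.

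Each library held between 24790392 and 32467283 counts, so that 3 counts corresponded to 0.0883 to 0.127 CPM (counts as a share of the TMM-adjusted library total, scaled up). All 7 genes were among the 14865 that passed the filter on low counts and were tested, and the smallest count of any of them in any library was 13, for ETV1 with trametinib. Of 11 epithelial markers, KRT7, KRT8, KRT18, EPCAM, PAX8 and WT1 had at least 1 CPM in every condition, whereas MUC16, SOX17, MECOM, CDH1 and KRT19 were at or near 0. Of 12 markers of blood, endothelial and fibroblast cells, COL1A1 and CD68 reached 1 CPM, and PTPRC, CD3E and DCN had no count. The summed level of these 12 genes, mostly from COL1A1 (226 to 518 CPM by condition) and CD68 (49.4 to 58.1 CPM), was 466 to 493 CPM in control, 278 to 294 under EC359, 564 to 578 with trametinib and 365 to 389 with the combination, and its part in the results below was not tested.

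Promoter windows of RefSeq genes (GRCh38.p14, 250 bases before to 50 bases after a transcript start) were at hand for ETV1, PHLDA1 and HMGA1, 3 of the 7 genes. They are shown because these genes cover the range of responses described next, from the deepest loss of transcript to almost none. For ETV1 and HMGA1, which have several windows, the one nearest the gene start in the files is shown. All are written 5′ to 3′ on the strand of the gene, with motif matches in capitals. The ETV1 window is at chr7:13991376-13991675 (minus strand), the PHLDA1 window at chr12:76031727-76032026 (minus strand) and the HMGA1 window at chr6:34236623-34236922 (plus strand).
ETV1: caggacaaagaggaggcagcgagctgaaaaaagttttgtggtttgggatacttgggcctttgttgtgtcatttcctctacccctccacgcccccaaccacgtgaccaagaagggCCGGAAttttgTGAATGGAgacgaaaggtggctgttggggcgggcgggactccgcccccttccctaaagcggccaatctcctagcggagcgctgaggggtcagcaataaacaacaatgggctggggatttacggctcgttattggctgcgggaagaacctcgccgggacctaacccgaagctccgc
PHLDA1: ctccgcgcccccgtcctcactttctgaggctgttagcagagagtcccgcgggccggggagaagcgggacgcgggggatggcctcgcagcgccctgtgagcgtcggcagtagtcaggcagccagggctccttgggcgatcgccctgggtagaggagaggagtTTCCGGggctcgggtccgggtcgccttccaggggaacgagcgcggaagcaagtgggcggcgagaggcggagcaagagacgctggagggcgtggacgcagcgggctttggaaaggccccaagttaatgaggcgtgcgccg
HMGA1: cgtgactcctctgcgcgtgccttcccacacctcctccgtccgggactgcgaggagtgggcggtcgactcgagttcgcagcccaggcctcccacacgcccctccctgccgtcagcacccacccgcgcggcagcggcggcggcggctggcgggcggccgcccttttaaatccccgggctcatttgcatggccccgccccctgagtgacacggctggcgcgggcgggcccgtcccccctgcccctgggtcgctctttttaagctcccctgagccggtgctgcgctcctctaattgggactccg
The motifs searched, on both strands, were the CIC octamers TGAATGAA and TGAATGGA, the AP-1 site TGANTCA and the ETS core CCGGAA, and none of the matches shown overlaps another. The ETV1 window held TGAATGGA with its first base at -125 and CCGGAA at -136, counted from the transcript start. The PHLDA1 window held CCGGAA on the opposite strand (printed as TTCCGG) with its first base at -89, and the HMGA1 window held none of these letters. Among all 35116 windows, 1.03% held TGAATGGA, 1.65% TGAATGAA, 7.71% TGANTCA and 17.2% CCGGAA, and among the 15607 windows of genes tested CCGGAA was in 25.7%. A match describes letters in these windows and is not a binding site.

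To see what blocking MEK did to the PEA3 transcripts, trametinib was first compared with control. ETV1 (chromosome 7 from 13891231 to 13991425, hg38, 19 annotated exons) had 15.4, 14.1 and 13.2 CPM in the control libraries, 12.1, 14.2 and 13.1 with EC359, 0.811, 0.494 and 0.811 with trametinib, and 1.20, 1.23 and 1.58 with the combination. The trametinib and combination libraries lay far below all others and did not overlap each other, while the EC359 and control libraries did overlap. Trametinib left 4.95% of the control level of ETV1, a 19.8-fold lower value (log2 fold change -4.31, SE 0.14). This estimate was the largest of the 7 genes, on 13 to 26 counts per trametinib library, and its 95% interval of 16.2- to 24.2-fold includes the value of ETV5 given next. These are bulk libraries, in which fewer cells with a transcript and less of it per cell cannot be told apart.

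ETV5 (chromosome 3 from 186046317 to 186109112, 13 exons) came next. It had 84.97, 82.9 and 90.3 CPM in control, 119, 110.4 and 113 under EC359, 4.49, 4.79 and 5.26 with trametinib, and 7.19, 7.49 and 7.70 with the combination. The 4 groups did not overlap anywhere, and their order from low to high was trametinib, combination, control and EC359. With trametinib the level was 17.8-fold lower than in control (log2 fold change -4.15, SE 0.06).

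ETV4 (chromosome 17 from 43527843 to 43546432, 14 exons) followed the same order with a smaller loss. It had 61.8, 65.0 and 63.8 CPM in control, 78.4, 75.7 and 71.4 under EC359, 14.7, 15.04 and 15.1 with trametinib, and 19.4, 21.2 and 20.7 with the combination. All groups were again apart. The level with trametinib was 23.5% of control (log2 fold change -2.09, SE 0.05), so more of the ETV4 transcript was left than of its relatives.

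**Figure D1:**
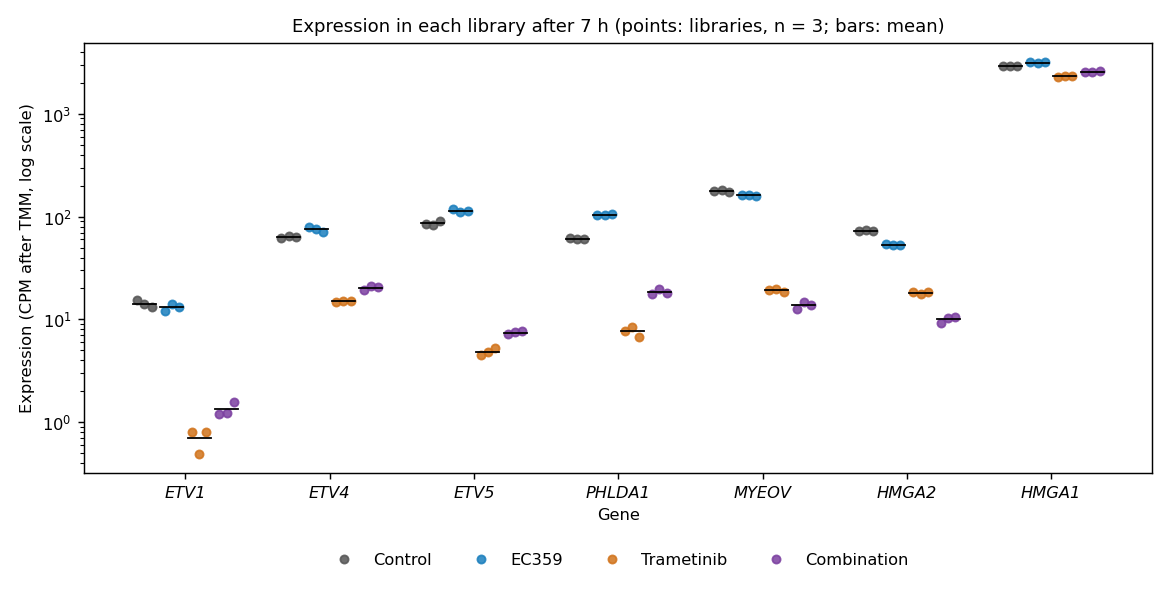
Expression of the 7 genes in each of the 12 libraries (CPM, log axis), with points for libraries and bars for the mean of 3. ETV1, ETV4, ETV5, PHLDA1, MYEOV and HMGA2 sit lower in every trametinib and combination library than in any control library by at least 3-fold on average, and HMGA1 moves little.

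On a scale per transcript length, where genes can be compared, ETV4 and ETV5 were the main PEA3 transcripts of these cells. Their control levels were 23.01 ± 0.576 and 21.0 ± 0.923 FPKM (SD, n = 3; CPM per 1000 bases of summed exon length), against 1.87 ± 0.138 FPKM for ETV1. The 3 genes summed to 45.9 ± 0.886 FPKM in control, 56.8 ± 2.01 under EC359, 6.69 ± 0.152 under trametinib and 9.39 ± 0.410 in the combination (SD, n = 3 each). The make-up of this sum moved with trametinib. ETV4 made up 50.2 ± 1.24% of it in control and 81.0 ± 1.08% with trametinib, while ETV5 went from 45.7 ± 1.33% to 17.7 ± 1.0% and ETV1 from 4.07 ± 0.376% to 1.38 ± 0.360%. With the combination the shares were 78.8 ± 0.643%, 19.4 ± 0.443% and 1.86 ± 0.263%.

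**Figure D2:**
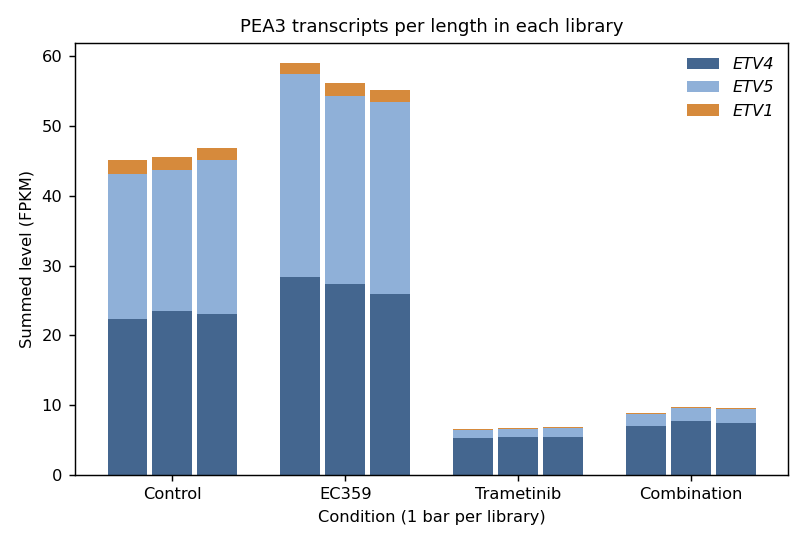
Summed level of ETV4, ETV5 and ETV1 in FPKM, 1 bar per library, split by gene. The trametinib bars reach 6.54 to 6.84 and the combination bars 8.92 to 9.68 FPKM, against 45.1 to 46.8 in control, and the part that remains is mostly ETV4.

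PHLDA1 (chromosome 12 from 76025447 to 76031776, 2 exons) had the largest log2 fold change of the 7 genes with EC359 and was far lower with trametinib. It had 61.7, 60.0 and 61.1 CPM in control, 103, 104 and 106 under EC359, 7.71, 8.39 and 6.81 with trametinib, and 17.6, 19.6 and 17.9 with the combination. No groups overlapped, and the order was that of ETV4 and ETV5. Its mean was 172% of control with EC359 (log2 fold change 0.78, SE 0.04), 12.5% with trametinib (-3.00, SE 0.06) and 30.2% with the combination (-1.73, SE 0.05).

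MYEOV and HMGA2 had a different order, with the combination as the lowest condition. MYEOV (chromosome 11 from 69294138 to 69297287, 2 exons) had 176, 179.5 and 174 CPM in control, 163, 162 and 158 under EC359, 19.5, 19.9 and 18.6 with trametinib, and 12.5, 14.8 and 13.8 with the combination. HMGA2 (chromosome 12 from 65824460 to 65966291, 7 exons) had 72.0, 73.8 and 72.0 CPM in control, 54.4, 53.3 and 52.6 under EC359, 18.5, 17.9 and 18.5 with trametinib, and 9.30, 10.3 and 10.6 with the combination. In both genes every library of a condition lay apart from the other conditions, in the falling order control, EC359, trametinib, combination. MYEOV kept 10.95% of its control level with trametinib and 7.75% with the combination. For HMGA2 the corresponding values were 25.2% and 13.9%, and EC359 alone left 73.6% (log2 fold change -0.44, SE 0.04).

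HMGA1 (chromosome 6 from 34236800 to 34246231, 6 exons), the relative of HMGA2, moved by less than 1.3-fold against control under every treatment. Its CPM values were 2890, 2911 and 2891 in control, 3167, 3082 and 3158 under EC359, 2282, 2324 and 2326 with trametinib, and 2535, 2542 and 2587 with the combination. The groups did not overlap, although the means with trametinib and the combination were still 79.7% and 88.2% of control. At 1207 FPKM in control, HMGA1 ranked at percentile 99.8 of the genes tested, against 68.2 for HMGA2 at 14.2 FPKM. The ratio of HMGA1 to HMGA2 per length was 85.2 ± 0.894 in control, 125 ± 2.48 under EC359, 270.2 ± 7.2 under trametinib and 542 ± 34.4 in the combination (SD, n = 3 each), and its libraries did not overlap between conditions. The HMGA1 counts were not whole in any of the 12 libraries, which divided reads with several placements or several genes can give, and the share of reads from near-identical copies was not tested.

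In trametinib against control, 6 of the 7 genes were called lower, meaning here and below at least a 2-fold change that passed the quasi-likelihood test of edgeR at a Benjamini-Hochberg threshold of 0.05, and HMGA1 was the exception. Of all genes tested, 0.955% were called lower, which is given for scale only because the genes were chosen on these counts. All 7 were lower without overlap of the libraries, as were 20.4% of all genes (19.7% were higher in this way). Their median log2 fold change was -3.00, against 0.00 over all genes tested. In combination against control the same count was 6 of 7 (background 5.87% called lower) with all 7 apart (35.8%), and the median was -2.85. The log2 fold changes with the combination were -3.69 for MYEOV, -3.53 for ETV5, -3.41 for ETV1, -2.85 for HMGA2, -1.73 for PHLDA1, -1.64 for ETV4 and -0.18 for HMGA1 (SE 0.02 to 0.13). Against EC359 alone, the combination was called lower in the same 6 genes (background 1.55%, and 1.69% called higher) and apart in all 7 (27%), from -3.93 in ETV5 to -0.30 in HMGA1. These comparisons share libraries and so are not independent of each other.

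**Figure D3:**
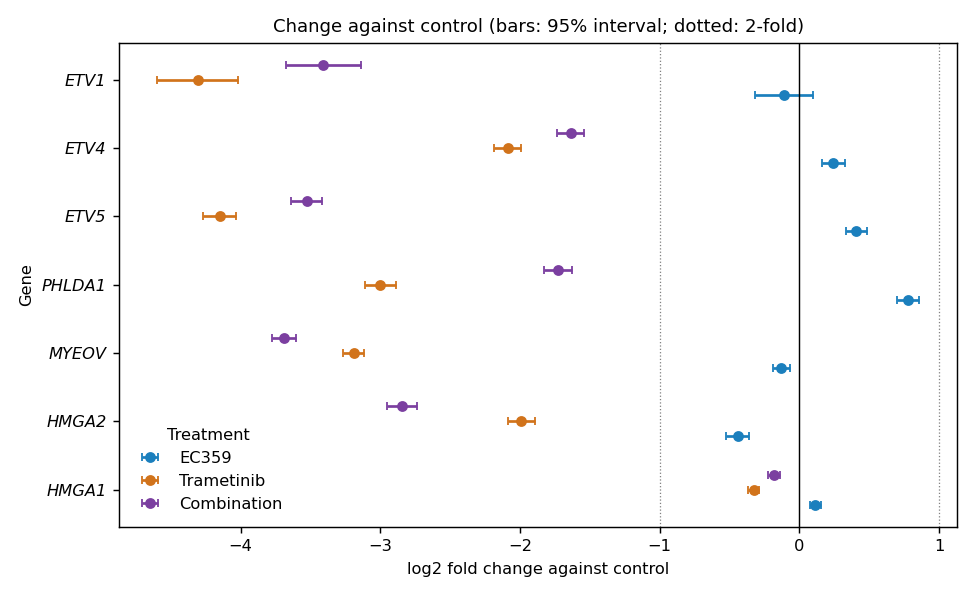
Log2 fold change of each gene against control, with bars for the 95% interval and dotted lines at 2-fold. Trametinib and combination points lie left of -1 for 6 genes and near 0 for HMGA1, and the combination point lies to the right of the trametinib point for ETV1, ETV4, ETV5, PHLDA1 and HMGA1, and to the left for MYEOV and HMGA2.

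The second question of the design was what EC359 did, alone and on top of trametinib. Alone, it moved none of the 7 genes by 2-fold, against 4.19% of all genes called higher and 2.79% called lower. ETV4, ETV5, PHLDA1 and HMGA1 lay above control in all 3 libraries (32.4% of all genes did), MYEOV and HMGA2 lay below it (32.3%), and ETV1 overlapped. The log2 fold changes were 0.78 for PHLDA1, 0.41 for ETV5 and 0.24 for ETV4 (95% interval 0.16 to 0.32). They were -0.11 for ETV1 (-0.32 to 0.10), -0.13 for MYEOV (-0.19 to -0.07) and -0.44 for HMGA2 (-0.53 to -0.36). HMGA1 had 0.11 (0.07 to 0.15), which turned to -0.020 when libraries were scaled by total counts only.

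On top of trametinib, the values for EC359 went up in some of the genes and down in others. PHLDA1 was called, 2.42-fold higher in the combination than with trametinib alone (background 6.12% called higher and 5.48% lower), and 5 genes lay higher (36%) and 2 lower (34.3%) in all libraries. HMGA2 passed both thresholds with total counts only (log2 -1.02), and ETV1 without trametinib replicate 1 (1.007) or without trametinib replicate 3 (1.001). ETV1 was 1.86-fold higher (log2 0.90, 95% interval 0.52 to 1.28), ETV5 1.54-fold (0.62, 0.44 to 0.80) and ETV4 1.37-fold (0.45, 0.34 to 0.57). HMGA1 was 1.11-fold higher, a direction that turned with scaling by total counts only (-0.02). HMGA2 was 1.81-fold lower (-0.86, -0.98 to -0.73) and MYEOV 1.41-fold lower (-0.50, -0.61 to -0.38). The combination held more PEA3 and PHLDA1 transcript than trametinib alone and less MYEOV and HMGA2, while all of these stayed far below control.

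**Figure D4:**
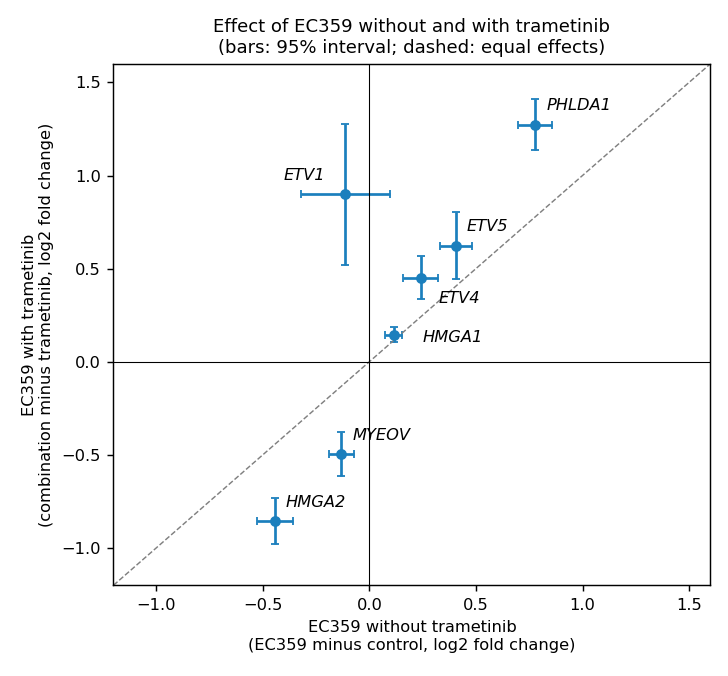
Effect of EC359 on each gene without trametinib (horizontal, log2 fold change of EC359 against control) and with it (vertical, combination against trametinib), with bars for 95% intervals and a dashed line where both are equal. PHLDA1, ETV4, ETV5 and ETV1 lie above the line, MYEOV and HMGA2 below it, and HMGA1 close to it.

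The interaction term gives the distance of the combination from the product of the single agents' effects. ETV1 was the only one of the 7 to be called (log2 1.01, SE 0.21, 95% interval 0.58 to 1.44), where 0.881% of all genes were called higher and 0.686% lower. Its value was under 2-fold in 5 of 19 alternatives, at 0.98 with total counts only, 0.95 without control replicate 1, 0.96 without EC359 replicate 1, 0.83 without trametinib replicate 2 and 0.87 without combination replicate 3. From the single agents the product for ETV1 was 0.651 CPM, and 1.34 ± 0.211 CPM (SD, n = 3) was measured. The product rests on 13 to 26 ETV1 counts per trametinib library. PHLDA1 was 1.40 times its product (18.4 against 13.1 CPM), and ETV5 and ETV4 were each 1.16 times theirs. MYEOV and HMGA2 fell short of the product, with 13.7 CPM against 17.7 and 10.1 CPM against 13.4. The log2 interactions were 0.49 (95% interval 0.33 to 0.65) for PHLDA1, 0.22 (0.02 to 0.41) for ETV5 and 0.21 (0.07 to 0.35) for ETV4. They were -0.36 (-0.50 to -0.23) for MYEOV, -0.41 (-0.57 to -0.26) for HMGA2 and 0.03 (-0.03 to 0.09) for HMGA1.

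Across the 12 libraries, which share 4 conditions and so are not independent points, the 7 genes had similar profiles in part. ETV4 and ETV5 had the highest Pearson correlation of log2 CPM, 0.998, and ETV1 had 0.989 with ETV5 and 0.988 with ETV4. HMGA1 and PHLDA1 had 0.994 in spite of the small amplitude of HMGA1. MYEOV and HMGA2 had 0.980, and the lowest values were 0.767 for HMGA2 with HMGA1 and 0.786 for HMGA2 with PHLDA1. Each profile was also compared with 11156 other genes with a mean of at least 5 CPM in some condition. SLC43A3 was among the 3 closest genes of all 3 PEA3 genes (r from 0.993 to 0.998), though its log2 fold changes were only -0.73 with trametinib and -0.59 with the combination. DCBLD2, a membrane receptor, was close to ETV4 and ETV5, and NAV3 to ETV4, with -3.01, -2.24 and 0.75 for trametinib, the combination and EC359. MPRIP and FOXD1 were the other genes close to ETV1, and ITGA3, an integrin subunit, to ETV5. CCND1, which encodes cyclin D1, was among the 3 closest to both MYEOV (0.996) and HMGA2 (0.991). FAM196B and PHC2 completed the list for MYEOV, RAI14 and PDP2 that for HMGA2. SPRY4, a feedback inhibitor of RAS signaling, was among the closest to PHLDA1 (0.997) and HMGA1 (0.995), next to EMP1 and GPR3 for PHLDA1 and SPRED2 and PDE4D for HMGA1. Of these 16 genes, picked by their profiles in these data, 12 had a promoter window. Genes with more windows have more places for a match, so nothing is read from the shares that follow. TGANTCA was in 4 of the 12 (EMP1, GPR3, PDE4D and SPRED2; 7.09% of the 10689 tested genes with a window held it in any of their windows), CCGGAA in 3 (NAV3, PDE4D and PHC2; 33.6%), TGAATGAA in 1 (PDE4D; 1.82%) and TGAATGGA in none (0.889%).

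ETV4, ETV5 and PHLDA1 belong to a 10-gene set of transcripts used as a readout of MEK activity, and the other 7 were counted as a group. By edgeR's quasi-likelihood test over all genes, 6 of these 7 were called lower with trametinib (background 0.955%) and 5 with the combination (5.87%), and 4 were called higher with EC359 alone (4.19%). EPHA2, a receptor tyrosine kinase, went from 212 ± 4.96 CPM in control to 350 ± 3.89 under EC359, 42.0 ± 0.147 under trametinib and 62.7 ± 1.61 in the combination (SD, n = 3 each), the order seen in PHLDA1. SPRY4 had 19.5 ± 0.663, 81.0 ± 1.13, 0.247 ± 0.0461 and 1.51 ± 0.206 CPM in that sequence. Its trametinib value rests on few counts, at 0.195 to 0.281 CPM where 3 counts are 0.0936 to 0.114 CPM. The ERK phosphatases DUSP4 and DUSP6 had 4.38 and 4.08 CPM in control, 10.4 and 14.9 under EC359, 0.294 and 0.0953 with trametinib (1 to 14 counts per library) and 1.35 and 1.54 with the combination. Trametinib replicate 2 held 14 of the DUSP4 and 5 of the DUSP6 counts, against 5 to 6 and 1 to 2 in the other trametinib libraries, and without it the log2 fold changes went from -3.94 to -4.61 and from -5.44 to -6.30. CCND1 instead followed MYEOV and HMGA2, with 808 ± 4.58 CPM in control, 644 ± 2.67 under EC359, 184 ± 4.07 with trametinib and 135 ± 0.652 with the combination.

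Genes known to restrain PEA3 factors, or to act with COP1, were counted next. TRIB1 and TRIB2 are listed as partners of COP1, and their action on PEA3 factors was not tested. Of the 7 genes in this list, 2 were called higher with EC359 (background 4.19%) and 1 was called lower with trametinib (0.955%). With the combination 3 were called higher (7.27%) and 1 lower (5.87%). TRIB1, a pseudokinase that brings substrates to COP1, rose from 22.2 CPM in control to 249.7 with EC359 (log2 fold change 3.49, adjusted p = 1.73e-58) and 196 with the combination (3.14, adjusted p = 6.4e-56) by the quasi-likelihood test of edgeR (Benjamini-Hochberg adjusted). It had 19.2 CPM with trametinib. CIC rose from 71.8 to 151 CPM with the combination (log2 1.07, adjusted p = 1.24e-35 in the same edgeR test), but to 0.93, under 2-fold, when scaled by total counts only. With the single agents its log2 values were 0.63 for EC359 and 0.17 for trametinib. ATXN1, a partner of CIC, went from 12.04 CPM to 34.0 with the combination (log2 1.499, adjusted p = 3.19e-29 in the same edgeR test). With EC359 ATXN1 was called at 24.4 CPM (log2 1.02), a call lost in 3 alternatives, with total counts only, without control replicate 3 and without EC359 replicate 3 (lowest 0.89). DET1, part of the COP1 complex, fell from 2.44 to 0.891 CPM with the combination (log2 -1.45, adjusted p = 7.18e-08 in the same edgeR test). TRIB2 was called lower with trametinib (log2 -1.13), a call lost without control replicate 1 (-0.996), and ATXN1L (0.51, 0.05 and 0.62 for EC359, trametinib and the combination) and COP1 (-0.05, 0.00 and -0.15) were not called.

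**Figure D5:**
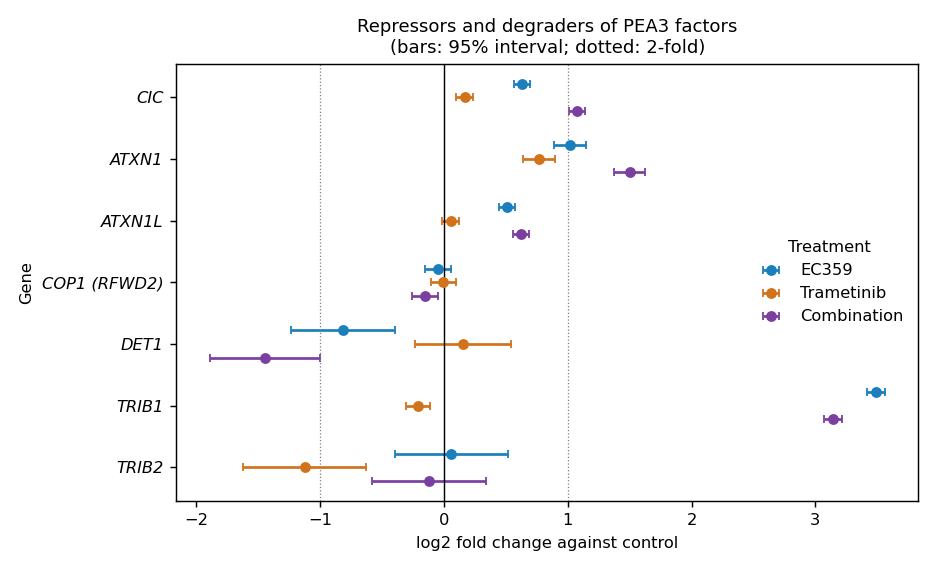
Log2 fold change against control of 7 genes listed as restraining PEA3 factors or as acting with COP1, with bars for 95% intervals and dotted lines at 2-fold. TRIB1 stands at 3.49 with EC359 and 3.14 with the combination, ATXN1 and CIC reach 1.499 and 1.07 with the combination, and DET1 reaches -1.45.

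Most other ETS genes were not called. Of 25 other family members 14 were tested, and 1 was called higher and 1 lower with trametinib, against 0.478% and 0.955% of all genes, with a median log2 fold change of 0.02. ELK3, a ternary complex factor that ERK phosphorylates, fell from 126 CPM to 51.6 with trametinib (log2 -1.28, adjusted p = 3.07e-37) and 50.3 with the combination (-1.32, adjusted p = 2.93e-38) in the quasi-likelihood test of edgeR (Benjamini-Hochberg adjusted). ELF3, an epithelial ETS factor, was the gene called higher with trametinib, on 12 to 15 counts per trametinib library against 1 to 2 in control. It passed the filter on low counts only through the condition in which it is high, so its call is no support for a change. With the combination 3 were called higher, ETS2, ERF and ELF3 (background 7.27%), and 1 lower (5.87%). ETS2 rose from 67.0 CPM to 166 with EC359 and 159 with the combination (log2 1.31 and 1.25, adjusted p = 8.98e-40 and 7.62e-39 in the same edgeR test), with 90.4 CPM under trametinib. ERF, an ETS repressor that ERK exports from the nucleus, went from 72.7 to 153 CPM with the combination (log2 1.07, and 0.93 with total counts only). The call of ELF3 with the combination (3 to 8 counts per library) was lost without any of control replicate 1, control replicate 3, combination replicate 2 or combination replicate 3. With EC359 ETS2 and ETV3 were called higher (background 4.19%), the latter named after its value was seen (log2 1.11, and 0.97 with total counts only).

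Of 13 genes reported as PEA3 targets 9 were tested, and with trametinib 1 was called lower (background 0.955%) at a median log2 fold change of -0.09. With EC359 2 were called higher (4.19%), and with the combination 1 was higher (7.27%) and 1 lower (5.87%). The gene called lower in both comparisons was PLAU, the urokinase protease, which fell from 40.1 CPM to 14.5 with trametinib (log2 -1.46, adjusted p = 9.65e-31) and 16.9 with the combination (-1.25, adjusted p = 1.64e-28) in the quasi-likelihood test of edgeR (Benjamini-Hochberg adjusted), with 58.2 CPM under EC359. Its receptor PLAUR had 117 CPM in control, 212 under EC359, 62.6 with trametinib and 111 with the combination and was not called. PTGS2, the inducible cyclooxygenase, was among those called higher with EC359 and the combination, with 0.129 CPM in control (4 counts in each library), 1.27 under EC359 and 0.823 CPM in the combination. It passed the filter on low counts only through the conditions in which it is high, so these calls are no support for a change. ICAM1, an adhesion molecule, was the other gene called higher with EC359 (117 to 258 CPM, log2 1.14, adjusted p = 2.2e-39 in the same edgeR test), with 83.3 CPM under trametinib and 117 CPM in the combination, where it was called lower against EC359 (log2 -1.15). The protease MMP14 (0.58, 0.12 and 0.56 for EC359, trametinib and the combination) and VIM, the mesenchymal filament vimentin (0.41, -0.09 and 0.30), were not called. ICAM1, PLAUR, MMP14 and VIM were named after their values were seen, and each lay higher with EC359 than in control. MMP9, MMP1 and ERBB2, also named after their values were seen, were not called either. MMP9 had 180%, 101% and 168% of its control level with EC359, trametinib and the combination. MMP1 went the other way, with 94.2%, 86.5% and 71.1%, and ERBB2 had 84.7%, 109% and 85.8%.

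Relatives of the other 4 genes were also counted. Of 14 HMG proteins and LIN28 or IGF2BP genes, 11 were tested and none was called by edgeR in any of the 6 comparisons, with log2 fold changes between -0.22 and 0.25 under trametinib. Since between 0.478% and 7.27% of all genes were called in each direction, a count of none among 11 says little about these genes. Of PHLDA2 and PHLDA3, PHLDA2 was called higher with the combination (log2 3.80, adjusted p = 0.0415 in edgeR's quasi-likelihood test) on 1 library with 8.14 CPM beside 0.373 and 0.150 CPM, and without combination replicate 1 the value was 0.37 and no call. PHLDA3 had log2 values of 0.15, 0.21 and 0.35 for EC359, trametinib and the combination. Of 15 genes of the cascade from RAS to ERK, none was called with trametinib by edgeR (background 0.478% higher and 0.955% lower), with a median of 0.04, and SOS2, an exchange factor of RAS, was the 1 gene called higher with the combination (background 7.27%; 23.2 to 50.7 CPM, log2 1.13, and 0.99 with total counts only).

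Within 500 kb of the 7 genes the annotation held 80 others, of which 47 were tested. With trametinib 3 were called lower (background 0.955%) and none higher, and with the combination 6 were lower (5.87%) and none higher. CCND1 (chromosome 11 from 69641105 to 69654474), 343.8 kb from MYEOV, was the only one of the 7 tested neighbors of MYEOV called in either comparison. LOC100507065 (chromosome 12 from 65466819 to 65642372), 182.1 kb from HMGA2, had 0.735 CPM in control, 0.988 under EC359, 0.146 in trametinib and 0.235 CPM in the combination, with 3 to 6 counts in each trametinib library. It passed the filter on low counts only through control and EC359, in which it is high, so its calls are no support for a change. Without combination replicate 1, which had 0.479 CPM, its log2 fold change with the combination went from -1.65 to -2.66. MIR6835, which lies inside HMGA1 and can share its reads, was called lower with trametinib (log2 -1.72) on overlapping groups, and lost the call in 6 alternatives. TBCCD1, 437 kb from ETV5, and MEOX1, 94 kb from ETV4 and near the detection limit with overlapping groups, were called lower with the combination (log2 -1.34 and -1.68, the latter -2.42 without combination replicate 3). So were BBS10, 312.7 kb from PHLDA1 (11.3 to 2.91 CPM, log2 -1.95), and NAGS, 458.2 kb from ETV4 (2.11 to 0.990 CPM, log2 -1.08), both named after their values were seen. MEOX1 passed the filter on low counts through control and trametinib, in which it is higher, so its call is no support for a change. The call of NAGS was lost in 3 alternatives, without control replicate 1, without control replicate 3 and without combination replicate 1 (smallest change -0.95).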

How the data were processed

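Polyadenylated RNA of OVCAR8 cells was sequenced by the authors from both ends of stranded libraries. The deposited values are estimated counts per gene: per the file headers, the authors counted exons with featureCounts 1.5.0-p1 against hg38 gene models, giving each placement or gene of an ambiguous read a fraction. The authors' processing notes also name bcl2fastq and HISAT2. Depth was 24790392 to 32467283 counts per library, 12.4% to 15.1% of values were not whole, and values were rounded.

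With R 4.3.3 and edgeR 4.0.16, genes were filtered (filterByExpr, minimum count 10, minimum total 15; 14865 of 26485 kept), scaled by TMM (factors 0.947 to 1.06) and fitted in a robust quasi-likelihood model of the 4 conditions, with Benjamini-Hochberg adjustment over all genes. The call was an adjusted p-value under 0.05 with at least a 2-fold change. CPM divided by summed exon length gave FPKM, and counts below 10 limit precision. The script was tested on simulated data.

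The 7 genes and all lists were chosen with earlier results of these data known. Named genes are the 7, listed genes and neighbors within 500 kb called with trametinib or the combination (at most 5 per list), lists of 3 or fewer, and the 3 genes most like each of the 7 by Pearson correlation of log2 CPM (prior count 2). SPRY2, EPHA4, ETV3, HRAS, ICAM1, PLAUR, MMP14, VIM, MMP1, MMP9, ERBB2, ATXN1L, COP1, BBS10 and NAGS were chosen after their values were seen. Alternatives were DESeq2 1.42.0, other scalings and filters, unrounded counts, a replicate block, the groups compared alone, no minimum fold change, and each library left out.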

Additional observations from a re-analysis of the deposited data

Results flagged for a closer look

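In 3 of the 7 other genes of the MEK readout set and in 1 of the 47 tested neighbors the effect of EC359 with trametinib differed from its effect without it. These were calls on the interaction term in the quasi-likelihood test of edgeR (Benjamini-Hochberg adjusted). Of all genes tested, 0.881% were called higher and 0.686% lower on this term, so 1 among 47 says little about the neighbors. DUSP6 had a log2 interaction of 2.17 (SE 0.37, adjusted p = 5.7e-06), with 1, 5 and 2 counts in the trametinib libraries. It was 1.74 to 3.03 over 18 alternatives, the highest without trametinib replicate 2. For EPHA4 the value was 1.63 (adjusted p = 6.49e-05, and 1.44 to 2.01 over 19 alternatives). EPHA4 had 2.16 ± 0.389 CPM in control, 1.16 ± 0.473 under EC359, 1.26 ± 0.125 under trametinib and 2.11 ± 0.266 in the combination (SD, n = 3 each). DUSP4 had 1.002, just past 2-fold, and its call was lost in 9 of 18 alternatives (0.72 to 1.68, the highest without trametinib replicate 2). NAGS, a neighbor of ETV4 named after its values were seen, had -1.02 (adjusted p = 0.00993 in the same edgeR test), lost in 4 of 19 alternatives, without control replicate 2, EC359 replicate 3, trametinib replicate 1 or combination replicate 1 (-1.16 to -0.79).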

How the results depend on the processing

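Without a minimum fold change the counts of called genes were 9077 for EC359, 4197 for trametinib, 10353 for the combination, 10136 for the combination against trametinib, 7319 against EC359 and 4506 for the interaction, against 1038, 213, 1953, 1723, 482 and 233. With at least 10 counts in every library, which tests fewer genes, trametinib had 134 calls, the combination against EC359 263 and the interaction 142. With total counts only, the median log2 fold change of the 7 genes was -0.020 for EC359, -2.98 for trametinib, -2.98 for the combination and 0.29 for the combination against trametinib. The cause was not tested. That scaling moved the median of all genes by -0.13, -0.14 and -0.16 for EC359, the combination and the combination against trametinib. It also moved the split of higher and lower calls from 623 and 415 to 475 and 589, from 1081 and 872 to 872 and 1194, and from 909 and 814 to 714 and 1136. DESeq2 called 172 genes for the interaction. Of 42 log2 values of the 7 genes, 40 kept their sign in every alternative, and HMGA1 turned to -0.02 with total counts only for EC359 and for the combination against trametinib.

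When each library was left out, the median of the 7 genes stayed at 0.11 to 0.13 for EC359, -3.07 to -2.92 for trametinib, -2.88 to -2.79 for the combination, 0.43 to 0.49 against trametinib, -2.56 to -2.48 against EC359 and 0.16 to 0.24 for the interaction. The counts of calls were 1024 to 1053, 210 to 227, 1970 to 2006, 1733 to 1756, 479 to 509 and 203 to 235. With the replicate block the counts were 1035, 209, 1943, 1718, 487 and 227. The replicate numbers share only a number: 18 correlations of same-numbered libraries lay between -0.07 and 0.03, and 1 of 12 libraries correlated best with its own number. Depth limits ETV1, SPRY4, DUSP4, DUSP6, ELF3 and PTGS2, which had few counts in some libraries.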

Other observations

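In HRAS, named after its values were seen, control replicate 2 had 8.12 CPM and EC359 replicate 1 had 12.1 CPM, against 0.456 to 1.12 CPM in the other libraries. Its log2 fold change with trametinib was -2.08 (adjusted p = 0.353 in the quasi-likelihood test of edgeR (Benjamini-Hochberg adjusted)). SPRY2, a relative of SPRY4 also named after its values were seen, had 22.6 CPM in control, 53.9 under EC359, 5.21 with trametinib and 17.8 with the combination, so that its combination level was 1.27-fold below control and 3.40-fold above trametinib.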
